A study of Homo sapiens with 6 samples.

Results

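The 9 genes described here encode the plasminogen activators PLAU and PLAT, the activator receptor PLAUR, and 6 proteins of the serpin family, SERPINE2, SERPINI1, SERPINB2, SERPINB6, SERPINB8 and SERPINH1. They were taken by gene symbol from the 29185 genes of the deposited expression table, and each symbol matched 1 row. RNA was sequenced from SKOV3, an established human ovarian cancer cell line, after poly(A) selection. In the sh-KLF5 group (3 libraries) the transcription factor KLF5 had been silenced with a short hairpin RNA in the vector pLKO.1-EGFP-Puro, and the sh-NC group (3 libraries) was the control, whose genotype the labels give as WT. No drug treatment is named in the labels of either group, and the comparison asks which transcripts differ in level when KLF5 is silenced. The number of hairpins and clones behind the sh-KLF5 libraries is not given in the labels, which also do not say whether the libraries came from separate cultures, so that p-values measure the spread between these libraries only.

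Plasminogen activators are serine proteases that cut the zymogen plasminogen into plasmin, a broad protease that dissolves fibrin and degrades extracellular matrix. Urokinase (PLAU) works mainly at the cell surface while bound to its receptor uPAR (PLAUR), and tissue-type activator (PLAT) works mainly on fibrin. Most serpins inhibit serine proteases by offering a bait loop that traps the enzyme in a covalent complex. In ovarian cancer the system is known for its part in invasion and spread across the peritoneum.

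Of the 9 genes, 8 had enough reads to be tested. SERPINE2 and SERPINH1 were higher in sh-KLF5 cells and SERPINB6 was lower (limma, Benjamini-Hochberg adjusted p under 0.05 over 15803 genes), and 5 tested genes did not pass. Among all tested genes 6.04% passed in the higher direction and 6.85% in the lower direction. Only SERPINE2 also had a log2 fold change beyond 1 in size, a threshold that 1.90% of all tested genes passed in the higher direction and 3.37% in the lower. The groups did not overlap for 5 of the 9 genes, and this was the case for 31.3% of all tested genes (15.4% with sh-KLF5 higher and 15.9% with sh-KLF5 lower). The median log2 fold change was 0.30 over the 8 tested genes and -0.0023 over all tested genes. However, PLAT reached the test only through its sh-KLF5 libraries and SERPINI1 only through its sh-NC libraries, the groups where their means were higher. This limits the median and, as PLAT is among the 5 genes without overlap, that count too.

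The libraries held 15852319 to 17543896 reads on genes in sh-NC and 16009859 to 16871350 in sh-KLF5, so that the 3 reads a count of 0 allows stood for 0.171 to 0.189 CPM, which are reads scaled to the library total. The first sh-KLF5 library differed more from its group than the others did. The chi-square per degree of freedom between libraries was 26.4 and 34.3 for the pairs that hold it and 4.66 to 11.6 for all other pairs within a group. Without it 1266 genes were higher and 1439 lower, against 955 and 1083 with it, and the log2 fold changes of SERPINE2, SERPINB6 and SERPINH1 were 1.37, -0.43 and 0.40, each still past the threshold. The silenced gene kept 34.8% of its control level (log2 fold change -1.53, standard error 0.12). Epithelial and SKOV3 markers differed in part. Their summed normalized count, mostly KRT8, ran from 25248 to 30076 in sh-NC and from 11394 to 16237 in sh-KLF5, and 3 of the 8 that have a row, KRT8, KRT18 and MUC16, were lower. The other 5 did not pass (EPCAM with a log2 fold change of -0.03, CDH1 -0.15, PAX8 -0.25, ERBB2 -0.33 and KRT19 1.14). The 4 fibroblast markers summed to 519.9 to 852.9 in sh-NC and 203.5 to 477.0 in sh-KLF5, with DCN lower. The leukocyte markers summed to 149.8 to 223.5 and 194.5 to 381.3, nearly all of it CD14, while 3 of the 5 with a row, PTPRC, LYZ and CD68, never exceeded 3 reads in a library. The endothelial markers summed to 66.1 to 87.0 and 34.1 to 73.7, mainly from PECAM1, and 1 of the 3 with a row, CDH5, had 3 reads or fewer. The part of these shifts in the results on the 9 genes was not tested. All libraries came from the SKOV3 cell line, so these sums do not measure other cell types as in a tissue. In bulk RNA, a change in the mix of cells within the line cannot be told apart from a change of RNA per cell.

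**Figure D1:**
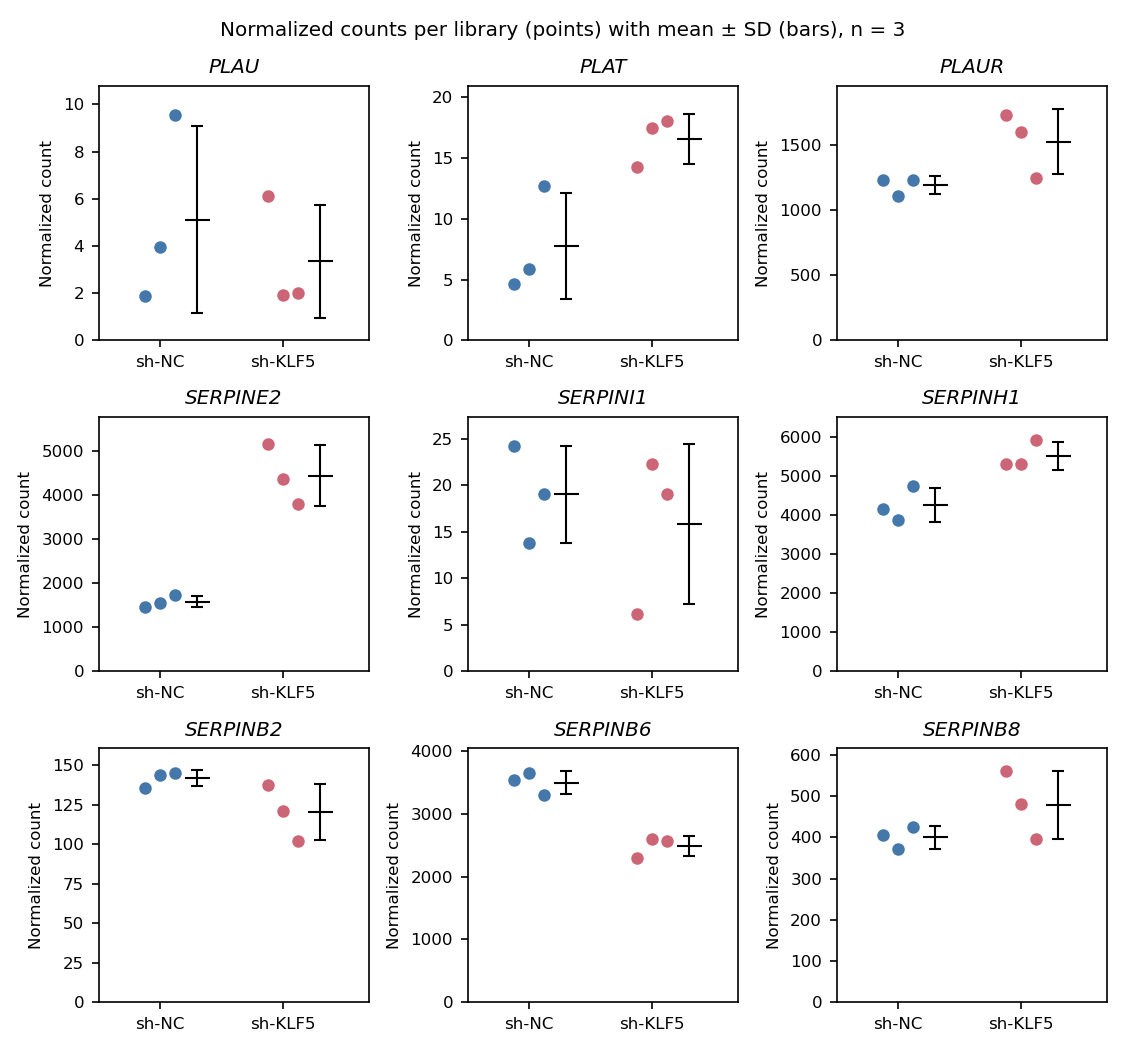
Normalized counts of the 9 genes in each library, on linear axes from 0, with sh-NC in blue and sh-KLF5 in red; the bars give the mean and SD of 3 libraries. The groups of SERPINE2, SERPINB6 and SERPINH1 lie apart, as do those of PLAT and PLAUR, whereas PLAU, SERPINI1, SERPINB2 and SERPINB8 overlap.

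The activators themselves were close to the limit of detection. PLAU (ENSG00000122861, GRCh38 chromosome 10, 73909177 to 73917497, + strand) had 2, 4 and 9 reads in sh-NC and 6, 2 and 2 reads in sh-KLF5. The ranges overlap, and the ratio of the summed reads, scaled for library size, was 0.675 (exact 95% interval 0.271 to 1.61, counting error only), so that no difference was detectable at this depth. Of its exonic bases, 31.1% lie opposite the exons of C10orf55, and it is not stated whether reads were counted by strand, although C10orf55 itself had at most 3 reads in a library.

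PLAT (ENSG00000104368, chromosome 8, 42175233 to 42207724, - strand) had 5, 6 and 12 reads in sh-NC and 14, 18 and 18 in sh-KLF5. Every sh-KLF5 library was above every sh-NC library, with summed reads of 50 against 23, a ratio scaled for library size of 2.20 (exact 95% interval 1.32 to 3.78, counting error only). The fitted log2 fold change was 1.11 (standard error 0.48, 95% interval 0.10 to 2.12), and the adjusted p of 0.149 (limma) did not pass the threshold.

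PLAUR (ENSG00000011422, chromosome 19, 43646095 to 43670547, - strand) encodes the GPI-anchored receptor that holds urokinase at the cell surface. Its normalized counts (reads divided by 1 factor per library) were 1231, 1111 and 1228 in control libraries, against 1726, 1601 and 1246 after silencing. The third sh-KLF5 library lay just above the highest control, while the first and second lay well above it. The log2 fold change was 0.35 (standard error 0.13, 95% interval 0.07 to 0.62), with an adjusted p of 0.101 (limma). Without the third sh-KLF5 library the log2 fold change was 0.48 with an adjusted p of 0.0195 (limma). Leaving out any other library gave an adjusted p of 0.135 to 0.338 (limma), not past the threshold.

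SERPINE2 (ENSG00000135919, chromosome 2, 223975112 to 224039319, - strand), also called protease nexin 1, is a secreted inhibitor of thrombin, urokinase and tissue-type activator. The sh-NC libraries gave normalized counts of 1469, 1546 and 1721, and those of sh-KLF5 gave 5150, 4365 and 3790. The lowest sh-KLF5 library was above the highest control by more than the whole range of the controls. The means were 1579 ± 129 (SD, n = 3) and 4435 ± 683 (SD, n = 3), a 2.81-fold rise. On the log2 scale the change was 1.48 (standard error 0.13, 95% interval 1.21 to 1.75, adjusted p = 8.77e-07, limma). With each library left out in turn it stayed between 1.37 and 1.59 and past the threshold.

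The 250 bases before the 2 RefSeq starts of SERPINE2 (GRCh38.p14) were searched for 5 letter patterns on both strands, and stretches of both windows are printed because this gene had the largest change of the 8 tested. The first pattern, CACCC, and the second pattern, GGGCGG, stand for the GC-rich boxes that KLF and SP factors are known to bind, and so does the third pattern, CCNCNCCC, which can share bases with the others. The pattern CCAAT is the box of the factor NF-Y. The last pattern was the heat shock element, searched as 3 units of GAA in alternating orientation with NN between units. The patterns were chosen after the data, and for CCAAT after the sequence, had been seen. Capitals mark the matches. Of the outer window only the 86 bases outside a UTR are printed.

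SERPINE2 inner start, chr2:224031479-224031728, - strand: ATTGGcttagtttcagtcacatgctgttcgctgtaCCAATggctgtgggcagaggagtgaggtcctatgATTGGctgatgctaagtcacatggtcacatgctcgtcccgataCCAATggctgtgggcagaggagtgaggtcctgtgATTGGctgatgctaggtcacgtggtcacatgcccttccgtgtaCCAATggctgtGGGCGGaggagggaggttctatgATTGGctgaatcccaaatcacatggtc

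SERPINE2 outer start, chr2:224038805-224038890, - strand: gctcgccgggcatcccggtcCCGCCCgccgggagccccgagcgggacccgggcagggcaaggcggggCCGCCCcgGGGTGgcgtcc

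The window before the inner start lies within the span of the gene. It holds 7 CCAAT matches and 1 GGGCGG match, and no CACCC or CCNCNCCC. At least 7 CCAAT matches were found in 7 of 35116 RefSeq promoter windows of that length (0.0199%), and at least 1 in 32.0%. The bases around these matches recur in similar copies along the printed window, so the matches are not independent of each other. Because CCAAT was chosen after this window was seen, the share is a description and not a test. The whole outer window of 250 bases holds 2 GGGCGG matches and 1 CACCC match, all within the printed stretch. GGGCGG was present in 42.6% of all windows, CACCC in 54.7% and CCNCNCCC in 53.4%. A match describes the letters only, and binding was not measured in these libraries.

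SERPINI1 (ENSG00000163536, chromosome 3, 167735243 to 167825568, + strand), or neuroserpin, is an inhibitor of tissue-type activator known from neurons. It had 26, 14 and 18 reads in sh-NC and 6, 23 and 19 in sh-KLF5. The groups overlap, and only the first sh-KLF5 library was below the controls. Its log2 fold change, -0.39 with a standard error of 0.47 (adjusted p = 0.651, limma), turned to 0.14 without that library.

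SERPINB2 (ENSG00000197632, chromosome 18, 63871692 to 63903890, + strand) encodes PAI-2, an inhibitor of urokinase that stays largely inside the cell. Normalized counts of 136, 144 and 145 (sh-NC) stood against 138, 121 and 102 (sh-KLF5). The first sh-KLF5 library lay within the controls and the other two lay below them. The log2 fold change was -0.24 (95% interval -0.63 to 0.14, adjusted p = 0.434, limma). It shares 19.9% of its exonic bases with SERPINB10 on the same strand, a gene with at most 2 reads in a library.

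SERPINB6 (ENSG00000124570, chromosome 6, 2948159 to 2972165, - strand) is an intracellular serpin that inhibits cathepsin G and trypsin-like proteases. In the control libraries its normalized counts were 3533, 3648 and 3290, and in the silenced ones 2297, 2598 and 2564. All sh-KLF5 libraries were below all controls. The means were 3491 ± 183 (SD, n = 3) and 2486 ± 164 (SD, n = 3), so that 71.2% of the control level remained. On the log2 scale it fell by 0.49 (standard error 0.11, 95% interval -0.73 to -0.25, adjusted p = 0.00699, limma). The adjusted p was 0.051 without the first sh-NC library and 0.0679 without the second. A stretch with 2 neighbouring GC-rich boxes before a RefSeq start is shown because SERPINB6 was the only one of the 9 genes to pass in the lower direction. All 250 bases of the window around this stretch (2971568 to 2971817) lie in an annotated UTR. That window holds 3 GGGCGG matches, the most of the SERPINB6 windows. The windows that begin at 2971277 and 2971290 hold 1 each. The window that begins at 2962131 holds no match to any GC-rich pattern. Of all windows, 42.6% held GGGCGG and 53.4% held CCNCNCCC.

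SERPINB6, chr6:2971655-2971682, - strand: cacgtcCCGCCCcgCCTCTCCCttcgcg

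The capitals in this stretch mark a GGGCGG match on the opposite strand and a CCNCNCCC match. SERPINB8 (ENSG00000166401, chromosome 18, 63969925 to 64019779, + strand), an intracellular serpin known as an inhibitor of furin, had normalized counts of 405, 370 and 424 in control libraries, against 560, 481 and 395 after silencing. The groups overlap through the third sh-KLF5 library. The log2 fold change was 0.25 (95% interval -0.06 to 0.56, adjusted p = 0.311, limma). HMSD and AC009802.1 share 6.31% and 4.38% of its exonic bases and had at most 13 and 3 reads in a library.

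SERPINH1 (ENSG00000149257, chromosome 11, 75562056 to 75572783, + strand), also called HSP47, differs from the others in role. It does not inhibit proteases but acts as a collagen chaperone in the endoplasmic reticulum, and it is known as a heat shock gene. Its RNA stood at normalized counts of 4155, 3875 and 4742 (sh-NC) and of 5302, 5310 and 5926 (sh-KLF5). The groups did not overlap, with means of 4258 ± 442 (SD, n = 3) and 5512 ± 358 (SD, n = 3). The log2 fold change was 0.38 (standard error 0.12, 95% interval 0.13 to 0.62, adjusted p = 0.0443, limma). The call was lost without the first sh-NC library (adjusted p = 0.183), the second (0.259), the second sh-KLF5 library (0.0746) or the third (0.112). A stretch of the 250 bases before a RefSeq start is shown because it holds the heat shock pattern, found in 0.441% of all windows. The stretch lies within the span of the gene, and 197 bases of its window lie in an annotated UTR.

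SERPINH1, chr11:75562169-75562197, + strand: ttccaactTTCCAGAAGTTTCtcgggacg

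**Figure D2:**
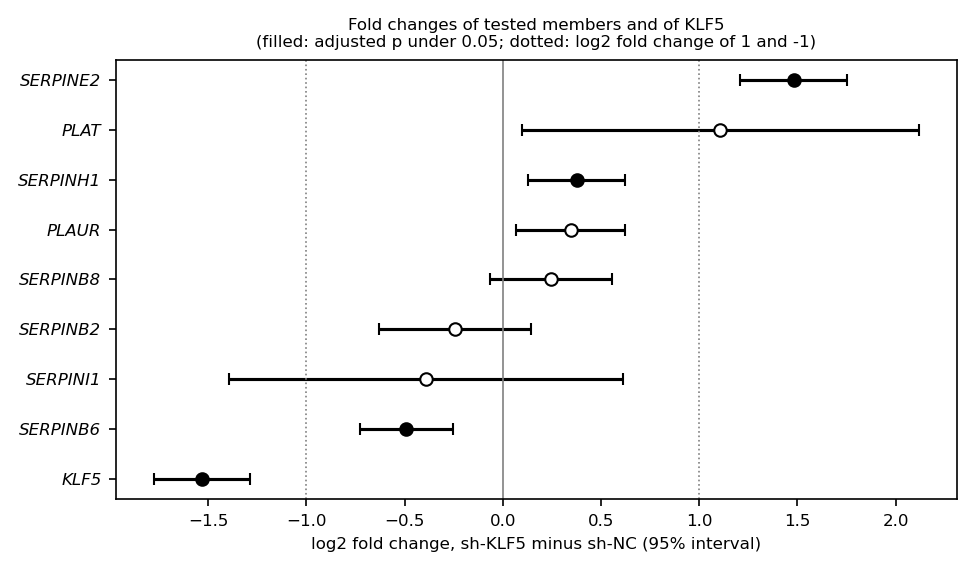
Log2 fold change of the 8 tested genes and of KLF5, sh-KLF5 minus sh-NC, with 95% intervals from limma; filled points have an adjusted p under 0.05 and the dotted lines stand at 1 and -1. SERPINE2 is the gene of the 8 whose whole interval lies beyond 1, and the interval of PLAT reaches from 0.10 to 2.12.

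For each gene that did not overlap, the exact permutation test over libraries gave p = 0.1, the smallest value that 3 against 3 libraries allow (two-sided). This held for PLAT, PLAUR, SERPINE2, SERPINB6 and SERPINH1.

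Levels were compared between genes as RPKM, which are recovered reads scaled by the exonic length of the gene and by the library total. That length joins the exons of all annotated transcripts, from 2418 bases for SERPINI1 to 13201 for SERPINB6. It can exceed the length of the transcripts present, so the order between genes also depends on the annotation. In sh-NC cells SERPINH1 was highest at 41.1 ± 3.58 (SD, n = 3), followed by PLAUR at 16.2 ± 0.840 and SERPINB6 at 16.0 ± 1.09, whose libraries overlap. SERPINE2 stood below them at 10.8 ± 0.702, then SERPINB8 at 4.13, SERPINB2 at 3.13 and SERPINI1 at 0.477. PLAU at 0.104 and PLAT at 0.0707 were lowest and overlapped, so that the receptor was far more abundant than either activator as RNA. In sh-KLF5 cells SERPINE2 moved up to the second place at 30.5 ± 5.15, above PLAUR at 20.9 ± 3.84 and SERPINB6 at 11.5 ± 0.813. The order below these was SERPINB8, SERPINB2, SERPINI1, PLAT and PLAU, in which only SERPINI1 and PLAT overlapped.

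**Figure D3:**
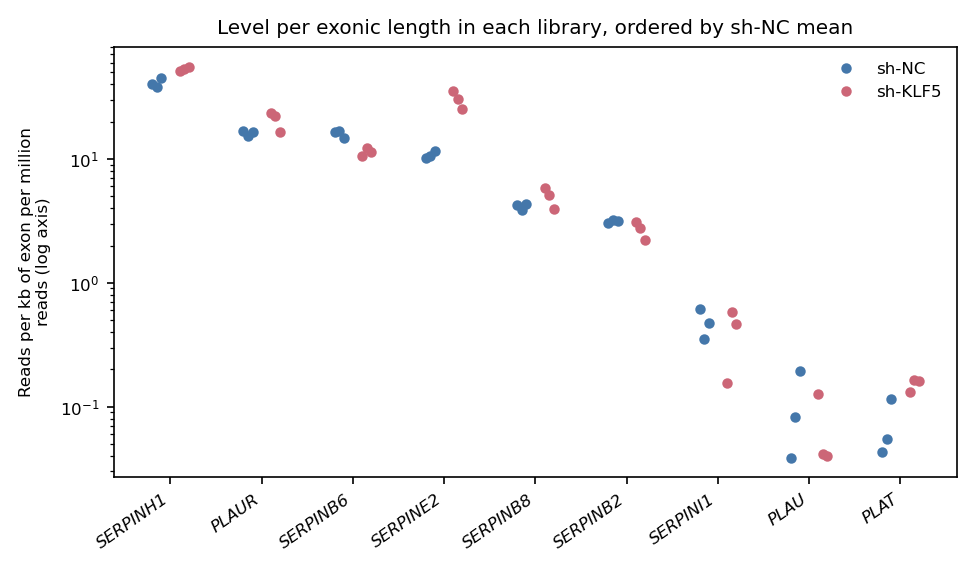
Level of each of the 9 genes per exonic length in each library, as RPKM on a log axis, ordered by the sh-NC mean. The genes span from 41.1 for SERPINH1 to 0.0707 for PLAT in sh-NC, and the red points of SERPINE2 lie above those of PLAUR and SERPINB6.

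The other serpins showed changes in both directions. Of 27 further serpin genes 14 were matched in the table and 9 were tested, of which 3 were higher and 2 lower, all 5 past a log2 fold change of 1 in size, beside 5.28% of all tested genes. Of these, SERPINB7 and SERPING1 reached the test only through the group where they were high, and among the 7 genes that both groups brought past the filter 2 were higher and 1 lower. The median log2 fold change was 0.21 over the 9. SERPINB3 and SERPINB4, inhibitors of cathepsins and chymotrypsin-like proteases first known as squamous cell carcinoma antigens, had log2 fold changes of 1.18 and 1.66. They are near-identical copies, so the split of reads between them is uncertain. SERPINB7 had 4 to 7 reads in sh-NC and 24 to 35 in sh-KLF5 (log2 fold change 2.19). SERPINF1, the secreted factor PEDF, fell by 1.73 on the log2 scale. SERPING1, the inhibitor of complement C1, had 32, 26 and 25 reads in sh-NC and 2, 4 and 0 in sh-KLF5, and its fitted log2 fold change of -3.52 ran from -4.85 to -2.25 over the alternatives that kept every library. SERPINB5, with 944 against 1143, did not pass (adjusted p = 0.516, limma).

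Clade B genes lie in clusters on chromosomes 18 and 6. Along chromosome 18, SERPINB5 had a log2 fold change of 0.21, followed by SERPINB4, SERPINB3 and SERPINB7, which were higher, and by SERPINB2 at -0.24 and SERPINB8 at 0.25, which did not pass. SERPINB10, between the last ones, was not tested. On chromosome 6, SERPINB1 and SERPINB9 had log2 fold changes of -0.06 and 0.01 beside the fall of SERPINB6.

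**Figure D4:**
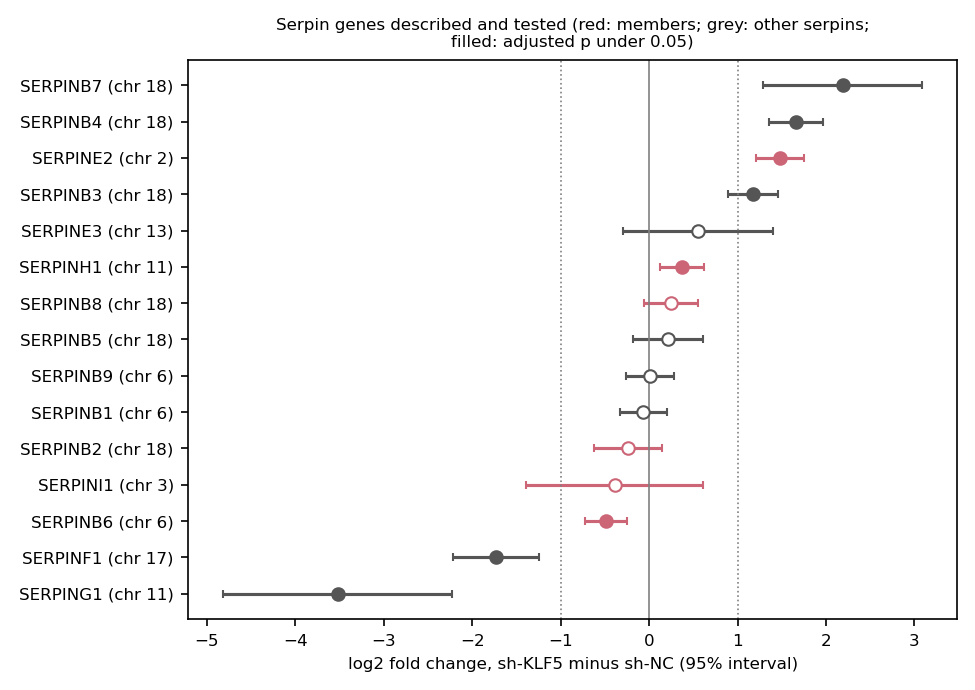
Log2 fold change of the tested serpin genes described here, sh-KLF5 minus sh-NC, with 95% intervals from limma and the chromosome of each; red marks genes of the set of 9, grey the other serpins, and filled points have an adjusted p under 0.05. Filled points lie on both sides, from SERPINB7 at 2.19 to SERPING1 at -3.52, which reached the test only through the group where they were high. Among the genes that both groups brought past the filter, they run from SERPINB4 at 1.66 to SERPINF1 at -1.73.

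Of 23 genes for plasminogen, its receptors, cofactors and clearance, 18 were tested (median log2 fold change -0.11). Of these 1 was higher and 4 lower, beside 6.04% and 6.85% of all tested genes. The higher one was the integrin subunit ITGB5 (0.42). HGF, a growth factor whose precursor is activated by serine proteases, had 808, 442 and 427 reads in sh-NC and 31, 14 and 13 in sh-KLF5 (log2 fold change -4.82). S100A10, which binds plasminogen on the cell surface together with ANXA2, fell by 1.01 on the log2 scale, whereas ANXA2 had a log2 fold change of -0.06 and the plasminogen-binding enolase ENO1 of -0.14, neither past the threshold. The sorting receptor SORL1 (-0.53) was also lower, and so was the protease trap A2M (-1.37), which reached the test only through its sh-NC libraries and whose call was lost in 3 of 6 fits that left out a library. PLG, which encodes plasminogen itself, is counted among the 23 genes but was matched to no row, so that it was not tested.

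Proteins with the uPAR-like domain were tested for 9 of 13 genes (median 0.26). Of these 1 was higher and 1 lower, beside 6.04% and 6.85% of all tested genes. LYPD6B had a log2 fold change of 2.21 and PSCA of -2.33. CD59 and LY6E, the most abundant by reads, had 0.16 and 0.26 and did not pass.

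Among 46 cell-surface and coagulation proteases, receptors and inhibitors, 25 were tested (median 0.02). Of these 6 were higher and 3 lower, beside 6.04% and 6.85% of all tested genes. The thrombin receptor F2R rose from 235 ± 32.7 to 760 ± 202 (SD, n = 3 each, log2 fold change 1.67) and the related receptor F2RL1 had 1.17. Tissue factor (F3), which starts coagulation, had a log2 fold change of 0.63, and its inhibitor TFPI had 1.63. GAS6 was higher (1.14), and its relative PROS1, the anticoagulant protein S, was lower (-1.06). The proteases PRSS22, with a mean normalized count of 4.28 in control libraries and 19.0 after silencing, had 2.13, KLK10 had -2.36 and TMPRSS3 had -0.76. PRSS22 reached the test only through its sh-KLF5 libraries, and its call was lost in 3 of 6 fits that left out a library. FURIN (0.10) and the cathepsin CTSB (0.28) had the most reads and did not pass.

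SERPINH1 works with the enzymes that fold and modify procollagen. All 26 of these that have a row were tested (median 0.16). Among them 5 were higher and 3 lower, beside 6.04% and 6.85% of all tested genes. The lysyl hydroxylase PLOD2 rose from 5961 ± 270 to 9417 ± 2087 (SD, n = 3 each, log2 fold change 0.64), and the prolyl hydroxylase P3H2 (1.21) and the transport factors SEC24D (0.61), MIA2 (0.50) and SEC31A (0.42) were higher. FKBP10, a collagen chaperone, had 272, 211 and 206 reads in sh-NC and 19, 20 and 26 in sh-KLF5 (log2 fold change -3.34). COLGALT2 (-3.16, tested only through its sh-NC libraries) and P3H3 (-1.10, a call lost in 3 such fits) were also lower, and P4HB (-0.15) did not pass. Of 20 heat shock genes (median 0.14), 2 were higher and none lower, beside 6.04% and 6.85% of all tested genes. The higher ones were HSPB8 at 1.66 and DNAJB4 at 0.52. HSP90AA1 and HSP90AB1 had 0.02 and 0.07.

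**Figure D5:**
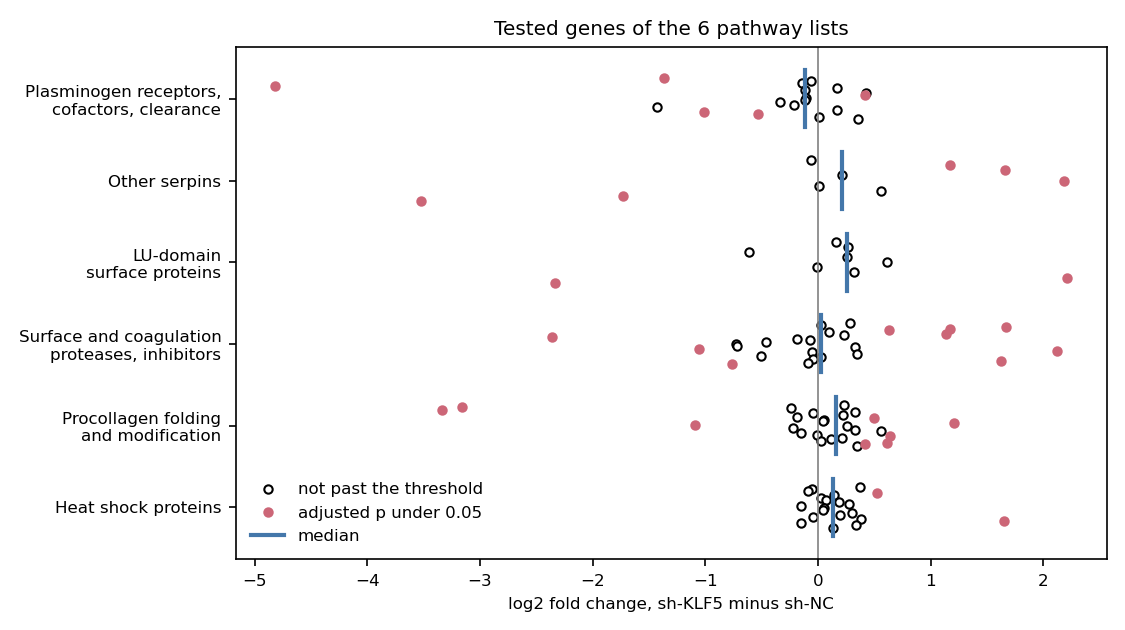
Log2 fold change, sh-KLF5 minus sh-NC, of each tested gene in the 6 gene lists; filled points have an adjusted p under 0.05 and the blue bar is the median of the list. The medians lie between -0.11 and 0.26, with filled points to both sides in every list but the heat shock genes.

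The genes whose profile over the 6 libraries lay nearest to each of the genes that passed were sought among 12806 tested protein-coding genes, by Euclidean distance of log2 values centred on each gene's mean. For SERPINE2 these were PHLDA1 (distance 0.186, log2 fold change 1.53) and SPOCK1 (0.229, 1.38). CASP9 (0.0989, -0.45) and PASK (0.104, -0.52) were nearest to SERPINB6, and DUS2 (0.0841, 0.34) and NDUFV3 (0.111, 0.39) to SERPINH1.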

How the data were processed

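SKOV3 libraries (3 sh-KLF5, 3 sh-NC) were grouped by the titles in the labels. The table deposited by the authors lists 29185 genes and gives for each library a normalized signal, namely the count of reads on the gene over a size factor of that library. The labels' processing notes name HISAT2 2.0.5, featureCounts 1.5.0-p3, DESeq2 1.20.0 and hg38. The same deposited table holds the authors' log2 fold changes and p-values, which were not used. Other per-sample columns numbered 0. Dividing the values of a library by the lowest nonzero one returned whole reads for 100% of values (tolerance 1e-06).

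On log2(normalized count + 1), a scale that understates the change of low genes, limma 3.58.1 (R 4.3.3; empirical Bayes with trend and robust options) was fitted over the 15803 genes that passed edgeR's filterByExpr (minimum count 10), with Benjamini-Hochberg adjustment over all of them. A gene passed at an adjusted p under 0.05. The fit was tested on simulated data with known changes. Pairs of libraries of 1 group differed by more than sampling noise (chi-square per degree of freedom 4.66 to 34.3).

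The 9 genes and the gene lists were chosen with earlier results of these data known. Named from the lists were genes past the adjusted p and a log2 fold change of 1 in size, and the 2 with the most reads; the others past the adjusted p were named after their values were seen. A few genes that the rule covers are not reported here. Alternatives were edgeR 4.0.16 and DESeq2 1.42.0 on recovered reads, TMM and library total scaling, pseudocounts of 0.1 and 5, no filter, at least 10 reads in every library, a replicate block and leaving out each library. Coordinates, exons and overlaps are from GENCODE 29 on GRCh38, and promoter sequences from RefSeq on GRCh38.p14, where 8 of the 9 genes had a window. Figures were drawn with matplotlib 3.10.9.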

Additional observations from a re-analysis of the deposited data

How the results depend on the processing

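SERPINE2 and KLF5 kept their direction and their side of the threshold under all 15 alternatives. Leaving out 1 library gave log2 fold changes of 0.25 to 0.48 for PLAUR, -0.53 to -0.43 for SERPINB6, 0.31 to 0.46 for SERPINH1, -0.34 to -0.13 for SERPINB2, 0.13 to 0.38 for SERPINB8, 0.85 to 1.49 for PLAT and -0.71 to 0.14 for SERPINI1, the last turning to 0.14 without the first sh-KLF5 library (adjusted p = 0.859, limma). The number of the 9 genes past the threshold was then 1 to 2 higher and 0 to 1 lower, and the cause was not tested. Of the list genes past a log2 fold change of 1 in size, A2M, PRSS22 and P3H3 each lost their call in 3 of the 6 fits that left out a library. Their adjusted p then reached 0.164, 0.0882 and 0.123 (limma). Calls of list genes with smaller changes were not followed gene by gene. Over all lists these fits gave 13 to 23 higher and 11 to 14 lower genes, against 18 and 13 with all libraries, so some smaller changes also lost their call. Over all genes these 6 fits gave 514 to 1266 higher and 676 to 1439 lower genes, against 955 and 1083 with all libraries, and the fits that leave out none gave 876 to 1292 and 758 to 1443. On the recovered reads edgeR's quasi-likelihood test gave 997 higher and 1093 lower genes, with 2 higher and 1 lower among the 9.

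With the replicate number as a block PLAUR passed (log2 fold change 0.35, adjusted p = 0.0494, limma), the only call on the 9 genes that the block changed, which made 3 higher. Deviations of libraries with the same number correlated at 0.059, 0.0331 and 0.0504, too weakly to pair them, although each library correlated best with its own number, a hint from the data and not from the design. PLAU could be fitted only without a filter (-0.42, adjusted p = 0.804). Depth limits PLAU, PLAT and SERPINI1, with 2 to 26 reads per library.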
